A study of Mus musculus with 75 samples.

Results

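Respiratory complex I is the first enzyme of the mitochondrial electron transport chain, and 38 of the 32245 rows of a mouse kidney count table name genes for its nuclear-encoded subunits. A row was taken where its symbol was *Ndufa*, *Ndufb*, *Ndufc*, *Ndufs* or *Ndufv* followed directly by a digit, or *Ndufab1*, and pseudogene symbols were left out. By this rule 9 other *Nduf* rows were left out, namely the assembly factors *Ndufaf1* to *Ndufaf8* and *Ndufb1-ps*, while *Ndufb1* was not a row of the table. The 38 members fall into 7 core subunits, among them those that carry the flavin and iron-sulfur clusters, 9 accessory subunits of the matrix arm, 19 accessory subunits of the membrane arm, the acyl carrier protein *Ndufab1*, and the pair *Ndufa4* and *Ndufa4l2*. Values were compared across all 12 groups of libraries, and between both forms in which the libraries were named.

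Whole-kidney RNA was sequenced from 75 kidneys of adult mice, taken 3 days after unilateral ureter obstruction (UUO), in which 1 ureter is tied off. Each library is from an obstructed kidney (UUO) or from a kidney of the opposite, contralateral side (CL), which the study used as an internal control. In the ABTAA arm, mice received ABTAA, an antibody that binds ANGPT2 and activates the endothelial receptor TIE2 (group ABT, 7 CL and 7 UUO libraries), or a human IgG Fc control (group IgG, 8 and 8). In the *Veptp* arm, floxed *Veptp* was deleted in endothelial cells with a tamoxifen-inducible *Cdh5*-CreERT2 (group VeKO, 6 CL and 8 UUO libraries), and the controls carried 1 floxed allele and the same Cre but were not induced (group VeWT, 7 and 8). In the *Pdgfb* arm, floxed *Pdgfb* was deleted in the whole body with a tamoxifen-inducible *Actb*-CreERT2 (group PbKO, 4 and 4), and the controls were Cre-negative mice with 1 or both alleles floxed (group PbWT, 4 and 4). Mice of all groups received the analgesic carprofen, both sexes were used, and the genetic lines were on a mixed background. The PbWT CL group includes kidneys of sham-operated mice, which cannot be picked out from the labels. The study's methods give fewer VeWT mice than there are VeWT UUO libraries.

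Complex I takes electrons from NADH, passes them along a chain of iron-sulfur clusters to ubiquinone, and pumps protons across the inner mitochondrial membrane. Its L shape has a matrix arm, which holds the cofactors, and a membrane arm, whose proton-pumping core is encoded by mitochondrial DNA. The accessory subunits surround this core and are needed for its assembly and stability. Proximal tubule cells and cells of the thick ascending limb hold many mitochondria and rely on oxidative phosphorylation for solute transport. In bulk RNA, fewer cells of a type and less RNA per cell cannot be told apart.

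The libraries held between 172827 and 2341800 counts with a median of 757897, and the 38 members together held between 1783 and 23508 counts per library. *Ndufa4l2* did not pass the filter on low counts in any arm, and the other 37 members passed it in all 3. *Pdgfb* was not lower in the libraries labelled PbKO CL, at 16.9 to 25.4 CPM against 4.52 to 20.3 CPM in PbWT CL, and in UUO it was at 34.0 to 41.4 CPM against 44.1 to 58.9 CPM (edgeR, adjusted p = 0.124). Its change from CL to UUO was 1.03 ± 0.27 on the log2 scale in PbKO and 2.28 ± 0.26 in PbWT, and these differed (interaction -1.26 ± 0.39, edgeR, adjusted p = 0.0458). *Ptprb*, the gene of VEPTP, differed in VeKO from VeWT by -0.69 ± 0.33 in UUO and by -0.63 ± 0.36 in CL kidneys (edgeR, unadjusted p = 0.0432 and 0.0918, neither past the adjusted threshold), with ranges that overlapped, and by -1.04 ± 0.16 between the joined and the plain libraries of that arm. The labels are used as given. Library names come in a plain form (a letter and a number, 45 libraries) and a joined form (a letter and a number joined by a low line, 30 libraries), and both forms occur in all 8 groups of the ABTAA and *Veptp* arms, whereas the *Pdgfb* arm has the plain form. At least 10 counts each of *Xist* and of Y-linked genes were found together in 4 of 4 PbKO UUO, 2 of 4 PbWT UUO, 2 of 4 PbWT CL, and 0 of 4 PbKO CL libraries, so that the PbKO UUO results cannot be given without such libraries. In each group of the other arms they were found together in 1 to 3 of the plain libraries and in 0 or 1 of the joined libraries, and counts of members without all such libraries are given beside the results they move. Without them, 33 (ABTAA arm) and 36 (*Veptp* arm) members were lower in the joined form, against 16.0% and 23.8% of all genes tested.

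The start sites of the members lie on many chromosomes, and because most members moved together in PbWT kidneys (below), 3 of their promoters are shown. In the RefSeq table of GRCm38.p6, 33 of the 38 members had a promoter, and the 250 bases before the start site were searched on both strands, with overlapping matches allowed, for 4 motifs. The motif of NRF1, a regulator of nuclear genes for mitochondrial proteins, was found before 6 of 33 members (*Ndufa11*, *Ndufa5*, *Ndufa8*, *Ndufb4*, *Ndufs5*, and *Ndufs6*), or 18.2%, against 9.93% of 7546 genes tested in the ABTAA arm and 4.23% of 27025 genes in the table. The motif AAGGTCA of the estrogen-related receptors was found before 3 members (*Ndufb2*, *Ndufb4*, and *Ndufs5*), or 9.09%, against 3.56% and 4.70%. The ETS motif CCGGAAG was found before 3 members (*Ndufb6*, *Ndufb7*, and *Ndufs3*), against 16.3% and 7.83%, and the YY1 motif AAGATGGC before 0 of 33, against 2.52% and 1.83%. These are matches of letters in these windows and no measure of binding. The counts include matches that lie inside the annotated gene. These were the NRF1 matches of *Ndufa5*, *Ndufa8*, and *Ndufs6*, the receptor match of *Ndufb4*, and the ETS matches of *Ndufb7* and *Ndufs3*. The 3 promoters shown are examples of the NRF1 and receptor motifs, 5′ to 3′ on the strand of the gene, with the matches in capitals, and bases inside the annotated gene are left out.
Ndufs5 (GRCm38.p6, chr4:123718203-123718436, minus strand, NRF1 at -98 to -89 and the receptor motif at -228 to -222 on the opposite strand): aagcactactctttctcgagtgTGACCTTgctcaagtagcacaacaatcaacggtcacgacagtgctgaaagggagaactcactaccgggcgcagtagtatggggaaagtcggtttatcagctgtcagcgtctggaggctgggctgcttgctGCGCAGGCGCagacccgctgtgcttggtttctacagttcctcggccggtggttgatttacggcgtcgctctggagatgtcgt
Ndufa11 (GRCm38.p6, chr17:56717512-56717761, plus strand, NRF1 at -60 to -51): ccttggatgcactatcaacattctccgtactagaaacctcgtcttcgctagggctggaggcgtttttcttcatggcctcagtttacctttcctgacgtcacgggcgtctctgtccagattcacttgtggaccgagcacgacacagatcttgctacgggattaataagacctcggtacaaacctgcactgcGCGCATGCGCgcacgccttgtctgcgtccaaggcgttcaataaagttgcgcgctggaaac
Ndufb2 (GRCm38.p6, chr6:39592315-39592564, plus strand, the receptor motif at -181 to -175): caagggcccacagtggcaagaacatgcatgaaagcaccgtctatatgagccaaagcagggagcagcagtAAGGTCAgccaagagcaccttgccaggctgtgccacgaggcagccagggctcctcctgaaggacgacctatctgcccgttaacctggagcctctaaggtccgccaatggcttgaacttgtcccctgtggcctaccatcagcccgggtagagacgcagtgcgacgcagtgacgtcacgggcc

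Levels are given as CPM, the counts of a gene relative to the counts of its library in all genes tested, scaled by TMM factors, which align the bulk of genes between libraries. Changes are log2 fold changes with standard errors (SE) from edgeR's quasi-likelihood test, fitted over all genes tested in an arm, and a member is said to have fallen or risen where its Benjamini-Hochberg adjusted p was under 0.05. Summed over the 38 members, the level was between 15400 and 19959 CPM in PbWT CL kidneys and between 7747 and 8668 CPM in PbWT UUO kidneys, a ratio of the means of 0.476. In PbKO it was between 16618 and 18171 CPM in CL and between 14389 and 15460 CPM in UUO kidneys, a ratio of 0.853. No library of 1 group overlapped with the other in either comparison. In the other 4 pairs of groups the ratio of UUO to CL was 0.558 (IgG), 0.725 (ABT), 0.654 (VeWT), and 0.882 (VeKO), and in these the ranges of UUO and CL libraries overlapped.

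**Figure D1:**
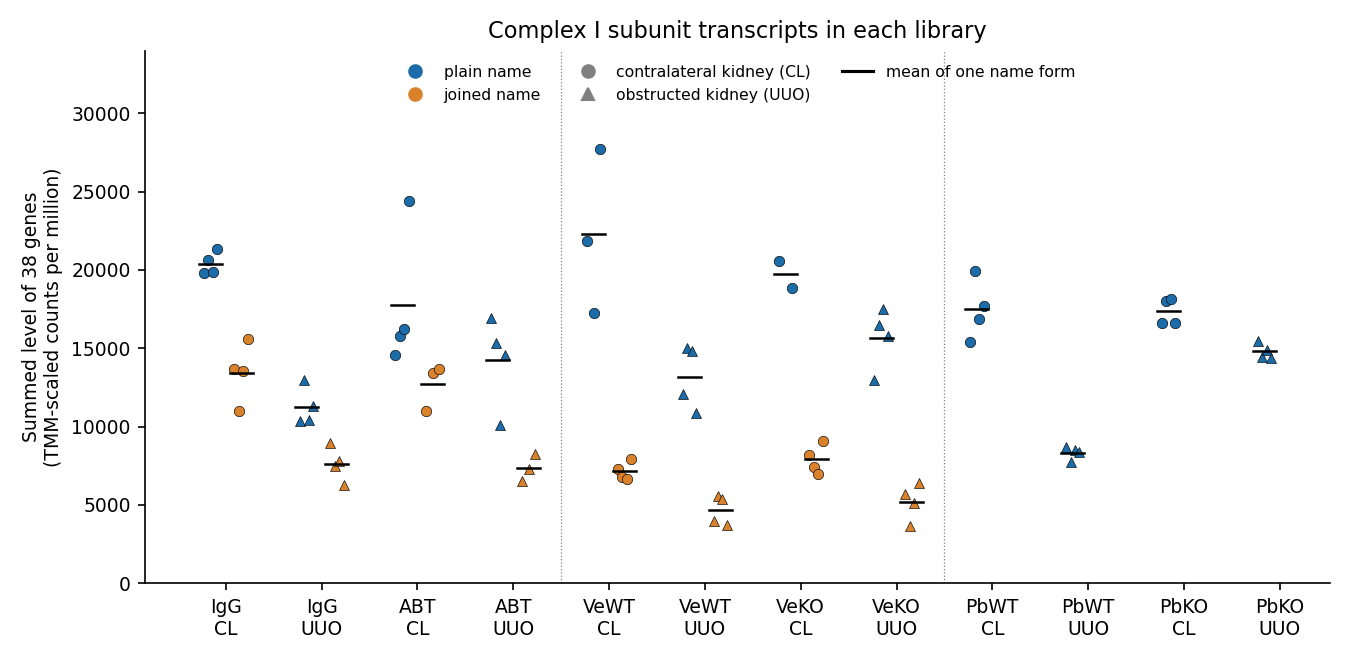
Summed level of the 38 complex I members in CPM (y axis, from 0) for every library in the 12 groups (x axis), with the form of library name shown by the colour and the kidney by the marker shape. The 4 PbKO UUO libraries lie at 14389 to 15460 CPM, above all 4 PbWT UUO libraries at 7747 to 8668 CPM, and in the *Veptp* arm the plain libraries lie above the joined libraries of the same group.

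In PbWT mice the complex I genes fell in obstructed kidneys across every class of subunit. Of the 37 members tested, 36 fell and none rose, while 19.4% of all 10923 genes tested fell. The median log2 fold change of the members was -1.01 (range -1.47 to -0.39), against 0.04 over all genes. All 7 core subunits fell with a median of -1.22, as did all 9 accessory subunits of the matrix arm (median -0.98), 18 of 19 of the membrane arm (median -0.93), *Ndufab1*, and *Ndufa4*. Without the libraries that held both *Xist* and Y-linked counts, 34 members fell, against 10.4% of all genes tested. For 35 of the 37 members every UUO library lay below every CL library, which held for 17.3% of all genes tested.

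The core subunit *Ndufv2*, which carries an iron-sulfur cluster next to the NADH-binding subunit, was at 605, 874, 698, and 704 CPM in the 4 PbWT CL libraries, whereas the 4 UUO libraries had 260.2, 242, 264, and 293 CPM. The groups did not overlap, and the log2 fold change was -1.44 ± 0.13 (SE, edgeR, adjusted p = 6.62e-09). *Ndufs1*, the largest core subunit with several iron-sulfur clusters, was at 553, 418, 499, and 415 CPM in CL and at 171, 184, 237, and 208 CPM in UUO libraries, again without overlap (-1.24 ± 0.13, edgeR, adjusted p = 6.21e-08). *Ndufv1*, which binds FMN and NADH, was at 754, 594, 679, and 642 CPM in CL and at 309, 277, 327, and 322 CPM in UUO libraries. Its change was -1.11 ± 0.12 (edgeR, adjusted p = 1.12e-07).

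*Ndufs7*, which holds the last cluster of the chain next to the quinone site, lay at 245 to 475 CPM in CL and at 139.6 to 163 CPM in UUO libraries (-1.22 ± 0.17). *Ndufs8*, with a pair of iron-sulfur clusters, lay at 435 to 783 and at 226 to 255 CPM (-1.30 ± 0.15), and *Ndufs3* at 186 to 238 and at 94.9 to 111 CPM (-1.10 ± 0.13). None of these 3 overlapped between the groups. *Ndufab1*, the mitochondrial acyl carrier protein, fell by 1.04 on the log2 scale (SE 0.13), and *Ndufa4*, first assigned to complex I and now to complex IV, fell by 1.19 (SE 0.14). The membrane-arm subunits *Ndufb10* (-1.47 ± 0.13, edgeR, adjusted p = 2.74e-09), *Ndufb9* (-1.37 ± 0.13), and *Ndufb5* (-1.28 ± 0.12) were among the 5 lowest changes. The smallest was that of *Ndufb4*, at 101, 86.7, 57.1, and 77.9 CPM in CL and 55.0, 56.5, 64.7, and 72.9 CPM in UUO libraries. These ranges overlapped, and its change of -0.39 ± 0.19 did not pass the test (edgeR, adjusted p = 0.121). The next smallest changes were those of *Ndufb3* (-0.65 ± 0.13), *Ndufa7* (-0.69 ± 0.15), *Ndufa2* (-0.77 ± 0.13), and *Ndufa3* (-0.79 ± 0.18), all of which passed it.

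In PbKO mice, 3 of the 37 members fell in obstructed kidneys and none rose, against 2.42% of all genes tested that fell. The median log2 fold change of the members was -0.19 (range -0.56 to 0.25), 32 of 37 changes were negative, and 12 were past an unadjusted p of 0.05, as were 2171 of the 10923 genes tested. The 3 were *Ndufb10* (-0.56 ± 0.13, edgeR, adjusted p = 0.00778), *Ndufs1* (-0.53 ± 0.13, edgeR, adjusted p = 0.0164), and *Ndufb9* (-0.45 ± 0.13, edgeR, adjusted p = 0.0414). *Ndufs1* was at 536, 449, 432, and 482 CPM in CL and at 323, 303, 324, and 363 CPM in UUO libraries. All its UUO libraries lay below its CL libraries, as they did for 13 members in all and for 5.13% of all genes tested. Of the rest, *Ndufs8* (-0.44 ± 0.15, edgeR, adjusted p = 0.0806) and *Ndufs7* (-0.40 ± 0.17, edgeR, adjusted p = 0.167) had the lowest changes, and *Ndufb4* (0.25 ± 0.20), *Ndufb2* (0.24 ± 0.13), *Ndufs4* (0.07 ± 0.12), *Ndufa2* (0.06 ± 0.13), and *Ndufa3* (0.02 ± 0.19) the highest, none past the test. The count of 3 was 6 without the first PbWT CL library and 1 without the first PbKO CL or the second PbKO UUO library.

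The obstructed kidneys labelled PbKO and PbWT were compared directly, to ask whether the levels under injury differed between these groups. All 37 members tested were higher in PbKO UUO than in PbWT UUO kidneys, against 12.0% of all genes tested. Their median log2 difference was 0.82 (range 0.60 to 1.02), against -0.02 over all genes. Every PbKO UUO library lay above every PbWT UUO library for all 37, which held for 12.7% of all genes tested. The summed level was 1.78 times as high. Both comparisons of UUO with CL kidneys share their libraries with this one, so the 3 are not independent.

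*Ndufb2*, a small subunit of the membrane arm, was at 114, 94.7, 128, and 103 CPM in PbWT UUO and at 201, 228, 221, and 240.5 CPM in PbKO UUO libraries. Its difference was the highest, at 1.02 ± 0.13 (edgeR, adjusted p = 4.46e-06). *Ndufv2* was at 643, 499, 486, and 493 CPM in PbKO UUO libraries, with the first above the others, and differed by 0.99 ± 0.13 (edgeR, adjusted p = 1.09e-05). *Ndufs1*, at the other end, differed by 0.72 ± 0.13 (edgeR, adjusted p = 0.000409), and the lowest difference was that of *Ndufa7*, at 0.60 ± 0.15 (edgeR, adjusted p = 0.0073). Other core subunits differed by 0.75 ± 0.12 (*Ndufv1*), 0.78 ± 0.15 (*Ndufs8*), 0.79 ± 0.17 (*Ndufs7*), and 0.91 ± 0.13 (*Ndufs3*). *Ndufa4* differed by 0.96 ± 0.14 and *Ndufab1* by 0.82 ± 0.13. By class, the median difference was 0.78 for the core, 0.73 for the matrix-arm, and 0.86 for the membrane-arm subunits.

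**Figure D2:**
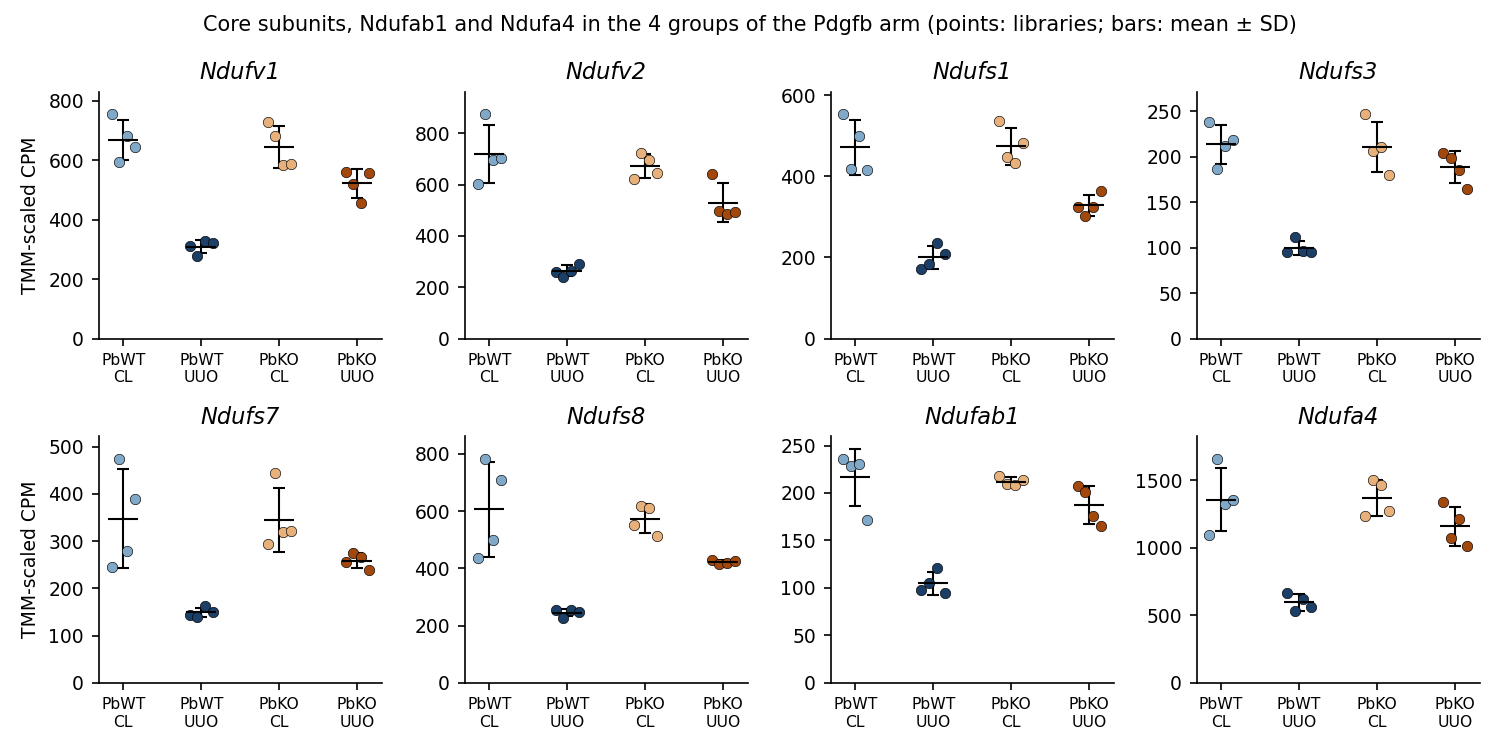
Levels in CPM (y axis) of 6 core subunits, *Ndufab1*, and *Ndufa4* in every library of the 4 groups of the *Pdgfb* arm (x axis), 1 point per library, with the mean ± SD. For each core subunit shown the 4 PbWT UUO libraries lie below the 4 PbKO UUO libraries, for example at 171 to 237 CPM against 303 to 363 CPM for *Ndufs1*.

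In the CL kidneys of these groups, 0 of 37 members differed between PbKO and PbWT, as did 0% of all genes tested (379 were past an unadjusted p of 0.05). No member was past an unadjusted p of 0.05, and DESeq2 and edgeR's exact test also called 0. The median log2 difference was -0.02, with the largest differences for *Ndufb4* (0.19 ± 0.20), *Ndufs4* (-0.17 ± 0.12), *Ndufb6* (0.13 ± 0.12), *Ndufa1* (0.11 ± 0.14), and *Ndufb5* (-0.10 ± 0.12). The difference between the responses to UUO was tested as an interaction, and 34 of the 37 members passed, all with a less negative change in PbKO, against 6.66% of all genes tested. The largest of these differences in response were 1.10 ± 0.19 (*Ndufv2*, edgeR, adjusted p = 0.000578), 1.06 ± 0.18 (*Ndufb2*), 1.05 ± 0.16 (*Ndufb5*), 0.96 ± 0.16 (*Ndufs4*), and 0.95 ± 0.17 (*Ndufb11*). The 3 members that did not pass were *Ndufa3*, *Ndufb4* (0.64 ± 0.27), and *Ndufa7* (0.55 ± 0.22). All 7 core subunits passed, with 0.70 ± 0.19 for *Ndufs1*, 0.80 ± 0.17 for *Ndufv1*, 0.81 ± 0.23 for *Ndufs7*, 0.86 ± 0.21 for *Ndufs8*, and 0.93 ± 0.18 for *Ndufs3*.

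The size of these differences rests in part on the scaling. Without TMM factors the median of all genes moved by 0.37 in PbWT UUO against CL and by -0.27 in PbKO against PbWT UUO, and the share of lower genes among all genes called went from 51.9% to 20.6% and from 35.4% to 79.2%. The members still moved the same way, with 34 lower in PbWT UUO against CL (median -0.63, against 10.6% of all genes tested) and 35 higher in PbKO against PbWT UUO (median 0.53, against 6.01%). In the interaction 14 rather than 34 members passed, against 2.86% of all genes tested that were higher, and the lower share of all genes called went from 22.2% to 68.2%.

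The other genes of the respiratory chain were counted in the same comparisons. In PbWT UUO against CL, all 7 complex I subunits encoded by mitochondrial DNA fell (median -1.48), with *mt-Nd4* at -1.76 ± 0.24, *mt-Nd2* at -1.73 ± 0.21, and *mt-Nd1* at -1.64 ± 0.23. All 4 genes of complex II fell (median -1.17), all 9 of complex III (median -1.18), all 10 of complex IV (median -1.12), and all 15 of complex V (median -1.14). Of the assembly factors of complex I, 10 of 19 fell (median -0.60), led by *Foxred1* (-0.95 ± 0.17), *Ecsit* (-0.91 ± 0.16), and *Acad9* (-0.88 ± 0.14). In PbKO against PbWT UUO kidneys, the 7 mitochondrially encoded subunits (median 1.17), the 4, 9, 10, and 15 genes of complexes II to V (medians 0.81, 0.88, 0.91, and 0.93), and 6 of 19 assembly factors (median 0.45) were higher, and none of them was lower. Differences between the lists were not tested.

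Regulators of mitochondrial biogenesis and targets of hypoxia were counted as well. Among 13 regulators, 5 fell and 1 rose in PbWT UUO kidneys, with falls of *Esrrb* (-2.24 ± 0.29), *Esrra* (-1.02 ± 0.20), and *Ppara* (-0.99 ± 0.25), and a rise of *Pprc1* (0.94 ± 0.37). In PbKO against PbWT UUO kidneys *Esrrb* (1.66 ± 0.31) and *Esrra* (0.64 ± 0.20) were higher and *Pprc1* lower (-1.12 ± 0.37). *Esrra* and *Esrrb* encode estrogen-related receptors. Of 7 hypoxia targets tested, 5 fell in PbWT UUO kidneys, with *Bnip3* (-0.93 ± 0.14), *Vegfa* (-0.91 ± 0.15), and *Pdk1* (-0.90 ± 0.19) lowest, and none rose. *Ndufa4l2*, the paralog of *Ndufa4* known to be induced in hypoxia, was at 1.13, 2.84, 1.50, and 5.34 CPM in PbWT CL and at 3.20, 4.25, 4.85, and 4.99 CPM in PbWT UUO libraries. Over all 75 libraries it lay between 0 and 14.5 CPM, too low for the test.

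Markers of kidney cell types moved with the complex I genes. In PbWT UUO against CL, 12 of 12 proximal tubule markers (median -1.47) and 7 of 8 markers of the thick ascending limb and distal tubule (median -1.67) fell, while 7 of 7 fibroblast and 8 of 8 macrophage markers rose (medians 1.80 and 2.16). In PbKO against PbWT UUO kidneys, 9 of 12 and 7 of 8 of these tubule markers were higher (medians 0.88 and 1.11), and 6 of 7 fibroblast and 4 of 8 macrophage markers were lower. The summed level of the proximal tubule markers was 9748 to 10349 CPM in PbWT CL, 2803 to 3898 CPM in PbWT UUO, and 4753 to 9111 CPM in PbKO UUO libraries, and that of the macrophage markers 515 to 793 CPM in PbWT UUO and 384 to 433 CPM in PbKO UUO libraries. The fibroblast markers summed to 1197 to 1632 CPM in PbWT UUO and 422 to 1010 CPM in PbKO UUO libraries, without overlap. The part of these cell types in the complex I levels was not tested.

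In the ABTAA arm, 31 members fell in the obstructed kidneys of IgG mice and 10 in those of ABT mice. With IgG, 31 of 37 members fell and none rose, against 18.2% of 9579 genes tested, with a median log2 fold change of -0.85 (range -1.26 to -0.48) against 0.02 over all genes. All 7 core subunits fell (median -0.87), with 6 of 9 of the matrix arm (median -0.75), 16 of 19 of the membrane arm (median -0.92), *Ndufab1* (-0.85 ± 0.14), and *Ndufa4* (-0.85 ± 0.22). The 6 that did not pass were *Ndufb3*, *Ndufs5*, *Ndufa3* (-0.66 ± 0.41), *Ndufs6*, *Ndufa7* (-0.48 ± 0.23), and *Ndufa2* (-0.60 ± 0.36). Without the libraries that held both *Xist* and Y-linked counts, 20 members fell, against 12.0% of all genes tested. For 12 members every UUO library lay below every CL library, against 4.98% of all genes tested.

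With IgG, *Ndufs1* lay at 345 to 578 CPM (median 483) in the 8 CL libraries and at 127 to 273 CPM (median 226) in the 8 UUO libraries, without overlap (-1.16 ± 0.15, edgeR, adjusted p = 1.54e-07). *Ndufv1* lay at 525 to 781 CPM (median 649) and at 297 to 495 CPM (median 351), also without overlap (-0.87 ± 0.12, edgeR, adjusted p = 3.48e-07). *Ndufv2* lay at 579 to 774 CPM and at 299 to 506 CPM (-0.88 ± 0.17, edgeR, adjusted p = 8.09e-05). Other core subunits changed by -0.89 ± 0.16 (*Ndufs7*), -0.83 ± 0.23 (*Ndufs3*), and -0.81 ± 0.18 (*Ndufs8*). The lowest change was that of *Ndufc1*, a small membrane-arm subunit, at -1.26 ± 0.39 (edgeR, adjusted p = 0.0105), followed by *Ndufs1*, *Ndufb5* (-1.06 ± 0.19), and *Ndufa1* (-1.01 ± 0.33). *Ndufa5*, next in this order, fell as well (edgeR, adjusted p = 0.0477). *Ndufs4*, an accessory subunit of the matrix arm that is lost in some patients with Leigh syndrome, changed by -0.59 ± 0.15 and *Ndufb6* by -0.67 ± 0.20, and both fell.

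With ABTAA, 10 of 37 members fell in obstructed kidneys and none rose, against 12.5% of all genes tested, with a median of -0.48 (range -0.80 to -0.15). Of the core subunits 6 of 7 fell (median -0.55), while 1 of 9 of the matrix arm and 2 of 19 of the membrane arm did. The 10 included *Ndufs1* (-0.80 ± 0.16, edgeR, adjusted p = 0.000173), *Ndufa10* (-0.73 ± 0.15), *Ndufv1* (-0.70 ± 0.12), *Ndufb5* (-0.68 ± 0.20), *Ndufab1* (-0.67 ± 0.14), *Ndufa9*, *Ndufs7* (-0.55 ± 0.17), *Ndufv2* (-0.52 ± 0.18), and *Ndufs8* (-0.49 ± 0.19). *Ndufs3* (-0.60 ± 0.24, edgeR, adjusted p = 0.0661) and *Ndufa4* (-0.38 ± 0.23, edgeR, adjusted p = 0.257) did not pass. The smallest changes were those of *Ndufb4* (-0.15 ± 0.30), *Ndufa7* (-0.17 ± 0.24), *Ndufa3* (-0.20 ± 0.42), *Ndufs4* (-0.30 ± 0.16), and *Ndufb3* (-0.30 ± 0.34). *Ndufs1* lay at 356 to 618 CPM in CL and at 201 to 382 CPM in UUO libraries, and these ranges overlapped. For 2 members every UUO library lay below every CL library, against 2.67% of all genes tested. The count was 18 without the first ABT UUO library, and 5 without the libraries that held both *Xist* and Y-linked counts, against 7.71% of all genes tested. The joined libraries of this treatment share numbers between UUO and CL, which were taken as pairs, although the labels do not name the mouse. Within these libraries 33 members fell with the number as a block and 28 without it, against 17.0% and 13.1% of all genes tested.

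The direct comparison of ABTAA with IgG found 0 of 37 members in UUO kidneys, in CL kidneys, or in the interaction, as it found 0% of all genes tested in each (340, 303, and 315 genes were past an unadjusted p of 0.05), and DESeq2 found 0 members as well. At an unadjusted p under 0.05 there were 4 members in UUO (*Ndufb4*, *Ndufs1*, and *Ndufa9* among them), 1 in CL (*Ndufab1*), and 0 in the interaction. In UUO kidneys 36 of 37 differences were positive, with a median of 0.26, but in the joined libraries alone 21 of 37 were negative (median -0.06), and in the plain ones all 37 were positive (median 0.34). With all libraries the largest were 0.64 ± 0.31 (*Ndufb4*), 0.49 ± 0.34 (*Ndufa1*), 0.48 ± 0.40 (*Ndufc1*), 0.45 ± 0.41 (*Ndufa5*), and 0.44 ± 0.25 (*Ndufv3*). Among the core subunits, *Ndufs1* differed by 0.34 ± 0.15. In CL kidneys the largest differences were -0.35 ± 0.14 (*Ndufab1*), -0.26 ± 0.19 (*Ndufb8*), -0.25 ± 0.16 (*Ndufs7*), -0.22 ± 0.22 (*Ndufb9*), and -0.21 ± 0.23 (*Ndufa4*). In the interaction all 37 differences were positive, with a median of 0.37 and *Ndufb4* (0.84 ± 0.43), *Ndufc1* (0.67 ± 0.55), *Ndufb2* (0.56 ± 0.45), *Ndufa1* (0.56 ± 0.47), and *Ndufv3* (0.52 ± 0.34) as the largest, but 13 were negative in the joined libraries alone. The larger count with IgG than with ABTAA is therefore not shown to be a difference between the treatments.

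In the *Veptp* arm the counts depended on the form of library name. They were 5 (VeWT) and 2 (VeKO) over all libraries, and 35 and 22 with the form as a covariate. In VeWT, 5 of 37 members fell in obstructed kidneys and none rose, against 8.38% of 11916 genes tested, with a median of -0.60 (range -0.89 to -0.17) and all 37 changes negative. The 5 were *Ndufs1* (-0.89 ± 0.19, edgeR, adjusted p = 0.00137), *Ndufs3* (-0.86 ± 0.21), *Ndufa10* (-0.81 ± 0.15), *Ndufab1* (-0.78 ± 0.20), and *Ndufv1* (-0.75 ± 0.19). *Ndufa10*, an accessory subunit related to nucleoside kinases, lay at 434 to 509 CPM in the 7 CL and at 187 to 372 CPM in the 8 UUO libraries. It was the 1 member without overlap between the groups, against 2.30% of all genes tested. *Ndufb10* (-0.80 ± 0.51), *Ndufv2* (-0.73 ± 0.32), *Ndufs8* (-0.67 ± 0.34), *Ndufa4* (-0.61 ± 0.47), and *Ndufs7* (-0.57 ± 0.27) did not pass, with SEs larger than those in PbWT. The smallest changes were those of *Ndufa7* (-0.17 ± 0.51), *Ndufa3* (-0.21 ± 0.60), *Ndufa2* (-0.29 ± 0.67), *Ndufa5* (-0.40 ± 0.63), and *Ndufb6* (-0.47 ± 0.50).

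In VeKO, 2 of 37 members fell, *Ndufs1* (-0.70 ± 0.20, edgeR, adjusted p = 0.028) and *Ndufa10* (-0.64 ± 0.15, edgeR, adjusted p = 0.00801), and none rose, against 3.48% of all genes tested. The median change was -0.12 (range -0.70 to 0.36), and 26 of 37 changes were negative. *Ndufa10* lay at 417 to 557 CPM in the 6 CL and at 223 to 387 CPM in the 8 UUO libraries, as the 1 member without overlap, against 0.512% of all genes tested. *Ndufv1* (-0.53 ± 0.20, edgeR, adjusted p = 0.107), *Ndufs3* (-0.47 ± 0.22), and *Ndufa9* (-0.44 ± 0.29) had the next lowest changes, and *Ndufb4* (0.36 ± 0.52), *Ndufb3* (0.32 ± 0.60), *Ndufa2* (0.21 ± 0.71), *Ndufs6* (0.15 ± 0.68), and *Ndufs4* (0.13 ± 0.36) the highest. *Ndufs7* (-0.33 ± 0.29), *Ndufab1* (-0.28 ± 0.21), *Ndufs8* (-0.26 ± 0.35), *Ndufv2* (-0.24 ± 0.34), and *Ndufa4* (-0.09 ± 0.49) did not pass either. The count of 2 was 1 without VeKO UUO replicate 1, 5, 6, or 7, and 0 by edgeR's exact test.

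VeKO and VeWT were compared directly in UUO kidneys, in CL kidneys, and in the interaction, and 0 of 37 members passed in each, as did 0% of all genes tested (426, 229, and 323 genes were past an unadjusted p of 0.05). With all libraries none of the members was past an unadjusted p of 0.05, and DESeq2 called 0 members as well. With the form as a covariate 5 members were past it in UUO (against 1042 of 11916 genes), and in the joined libraries alone 5 in UUO and 2 in CL (against 768 and 936 of 12556 genes). With the replicate block, which for 4 of the 8 numbers joins libraries of different genotypes, there were 9 in CL, 1 in UUO, and 1 in the interaction (against 741, 609, and 766 genes), and in the plain libraries 2, 1, and 2 in UUO, CL, and the interaction (against 821, 301, and 587 of 7778 genes). No member passed the adjusted threshold in these fits. In UUO kidneys 35 of 37 differences were positive (median 0.22), with *Ndufv2* (0.45 ± 0.31), *Ndufb10* (0.40 ± 0.50), *Ndufb4* (0.36 ± 0.47), *Ndufv3* (0.32 ± 0.35), and *Ndufs6* (0.31 ± 0.63) as the largest. In CL kidneys 35 of 37 were negative (median -0.22), but 22 were positive with the form as a covariate (median 0.04), 30 in the joined libraries alone (median 0.13), and 36 in these with the block (median 0.27). The largest of all libraries were *Ndufb3* (-0.57 ± 0.61), *Ndufs4* (-0.51 ± 0.37), *Ndufb4* (-0.48 ± 0.53), *Ndufc1* (-0.46 ± 0.62), and *Ndufb7* (-0.42 ± 0.69). In the interaction all 37 were positive (median 0.46), but 11 were negative in the joined libraries alone (median 0.06) and 25 in these with the block (median -0.08), against 2 in the plain ones (median 0.37). With all libraries they reached 0.88 ± 0.82 for *Ndufb3*, 0.84 ± 0.71 for *Ndufb4*, 0.68 ± 0.93 for *Ndufb7*, 0.68 ± 0.50 for *Ndufs4*, and 0.66 ± 0.94 for *Ndufs6*.

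**Figure D3:**
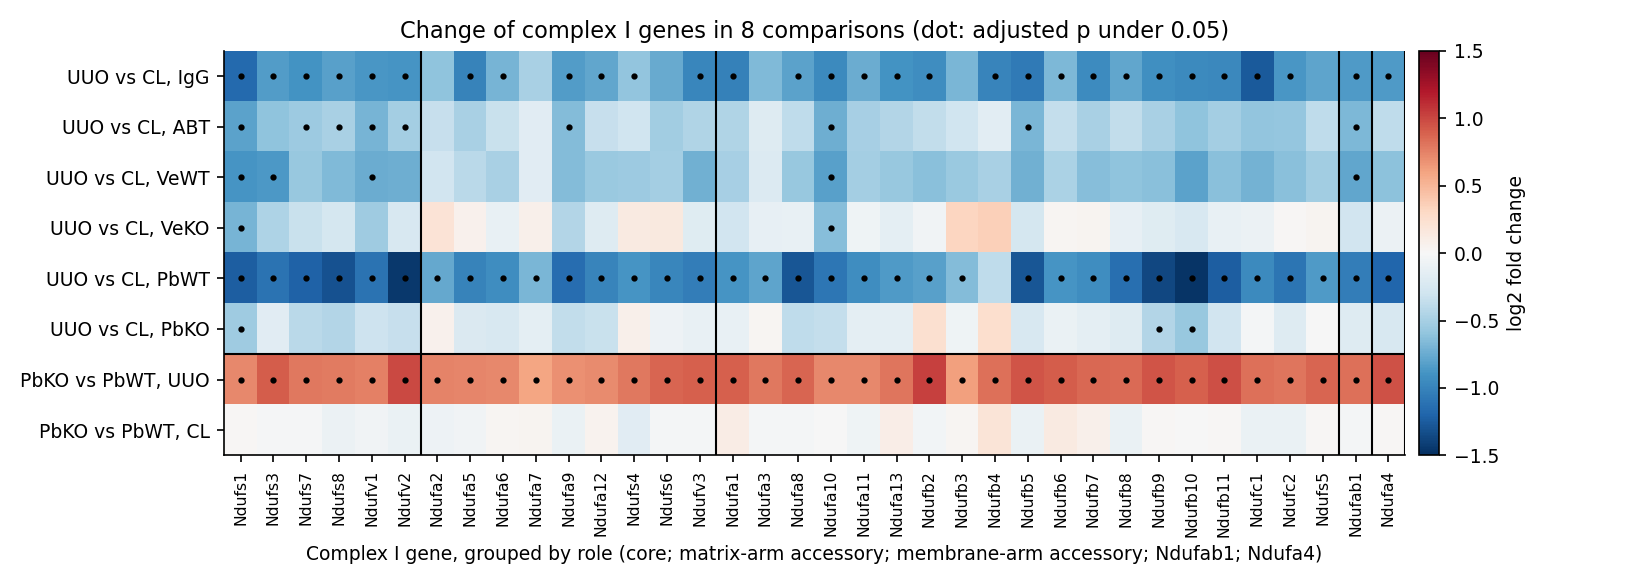
Log2 fold change of UUO against CL kidneys or of PbKO against PbWT kidneys (colour) for 36 of the 37 members tested (columns, ordered by class) in 8 comparisons (rows), with a dot at an adjusted p under 0.05. The row of PbKO against PbWT in UUO kidneys has a dot at every member shown, the row of the same comparison in CL kidneys has none, and the row of UUO against CL kidneys in PbWT lacks a dot at *Ndufb4*.

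The complex I genes differed between the forms of library name, within groups. In a fit with group and form, 36 of 37 members of the *Veptp* arm were lower in the joined libraries, against 28.4% of all genes tested, with a median log2 difference of -1.84 (range -2.72 to -0.05), against 0.09 over all genes. *Ndufa10* was the exception (-0.05 ± 0.10, edgeR, adjusted p = 0.695). In the ABTAA arm 32 of 37 were lower and 1 higher in the joined libraries, against 21.2% lower and 18.6% higher of all genes tested, with a median of -0.77 (range -1.62 to 0.25). The 1 higher was *Ndufa10* (0.25 ± 0.09, edgeR, adjusted p = 0.0266), and *Ndufs1* (0.06 ± 0.10), *Ndufv1* (-0.03 ± 0.08), and *Ndufab1* (-0.10 ± 0.09) were among those that did not pass. The ratio of the summed level in plain to joined libraries of the same group was 2.50 to 3.11 in the 4 groups of the *Veptp* arm and 1.40 to 1.93 in those of the ABTAA arm.

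The accessory subunits had lower medians than the core subunits, a difference that was not tested. In the *Veptp* arm the median was -0.76 for the core, -1.98 for the matrix-arm, and -2.01 for the membrane-arm subunits, and in the ABTAA arm -0.34, -0.91, and -0.89. *Ndufa2*, a small subunit of the matrix arm, was at 436 to 881 CPM in the 3 plain and at 87.4 to 109 CPM in the 4 joined VeWT CL libraries, and differed by -2.72 ± 0.12 (edgeR, adjusted p = 3.12e-20). *Ndufs6*, which binds zinc, was at 443 to 665 and at 62.9 to 105 CPM in the same libraries (-2.61 ± 0.12), and *Ndufb7* at 412 to 739 and at 77.6 to 95.9 CPM (-2.57 ± 0.11). *Ndufs5* (-2.57 ± 0.12) and *Ndufa5* (-2.56 ± 0.11) followed. *Ndufs1*, in contrast, was at 465 to 542 CPM in the plain and at 355 to 454 CPM in the joined libraries of that group (-0.44 ± 0.11), near *Ndufs3* (-0.44 ± 0.12), *Ndufab1* (-0.44 ± 0.11), and *Ndufv1* (-0.56 ± 0.09). Without TMM factors *Ndufs1*, *Ndufs3*, and *Ndufab1* were positive, at 0.029, 0.030, and 0.026, as was *Ndufa10* at 0.42. Between these lay *Ndufs7* (-0.88 ± 0.11), *Ndufv2* (-1.17 ± 0.10), *Ndufs8* (-1.22 ± 0.11), and *Ndufa4* (-1.76 ± 0.13).

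In the ABTAA arm the lowest differences were those of *Ndufa5* (-1.62 ± 0.11, edgeR, adjusted p = 1.71e-14), *Ndufc1* (-1.54 ± 0.12), *Ndufa3* (-1.49 ± 0.16), *Ndufa2* (-1.40 ± 0.12), and *Ndufa13* (-1.40 ± 0.10), also known as GRIM-19. *Ndufs3* (-0.79 ± 0.10), *Ndufa4* (-0.57 ± 0.13), *Ndufs8* (-0.40 ± 0.11), *Ndufv2* (-0.39 ± 0.10), and *Ndufs7* (-0.34 ± 0.10) were lower too. *Ndufa5* was at 433 to 554 CPM in the 4 plain and at 97.3 to 168 CPM in the 4 joined IgG CL libraries.

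The differences between forms were set beside the length of the transcript. By the GENCODE vM21 annotation, 21 of the 37 members tested have a transcript under 1000 bases, such as *Ndufa2* (572 bases), *Ndufb7* (623 bases), and *Ndufs5* (680 bases), while *Ndufa10* has 2020 bases, *Ndufs1* 2661 bases, and *Ndufab1* 3479 bases. Longer transcripts were also found among the lowest differences, such as those of *Ndufc1* (1249 bases) and *Ndufa13* (1251 bases), and the longest, that of *Ndufb2* (4371 bases), differed by -1.10 (ABTAA arm) and -1.84 (*Veptp* arm). In the *Veptp* arm all 21 short members were lower, with a median of -2.03, and 15 of the 16 longer ones, with a median of -1.19. Of the other genes, 79.4% of 659 under 1000 bases were lower (median -1.27) and 25.0% of 10507 longer ones (median 0.13). In the ABTAA arm all 21 short members (median -0.89) and 11 of 16 longer ones (median -0.40) were lower, against 67.2% of 574 short other genes (median -0.53) and 17.6% of 8590 longer ones (median 0.03). Across the 37 members, Spearman's rho between length and the difference was 0.643 in the *Veptp* arm and 0.485 in the ABTAA arm, and across all genes with a length 0.0611 and 0.219. Genes are not independent replicates, and the points share the same libraries. The share of counts in *Gm42418* and *AY036118*, loci rich in ribosomal RNA sequence, moved with the form as well, at 0.3 to 0.8% in the joined and 9.2 to 21.8% in the plain libraries of the *Veptp* arm, and at 3.9 to 5.9% and 7.3 to 18.7% in the ABTAA arm. Its part in the differences was not tested.

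**Figure D4:**
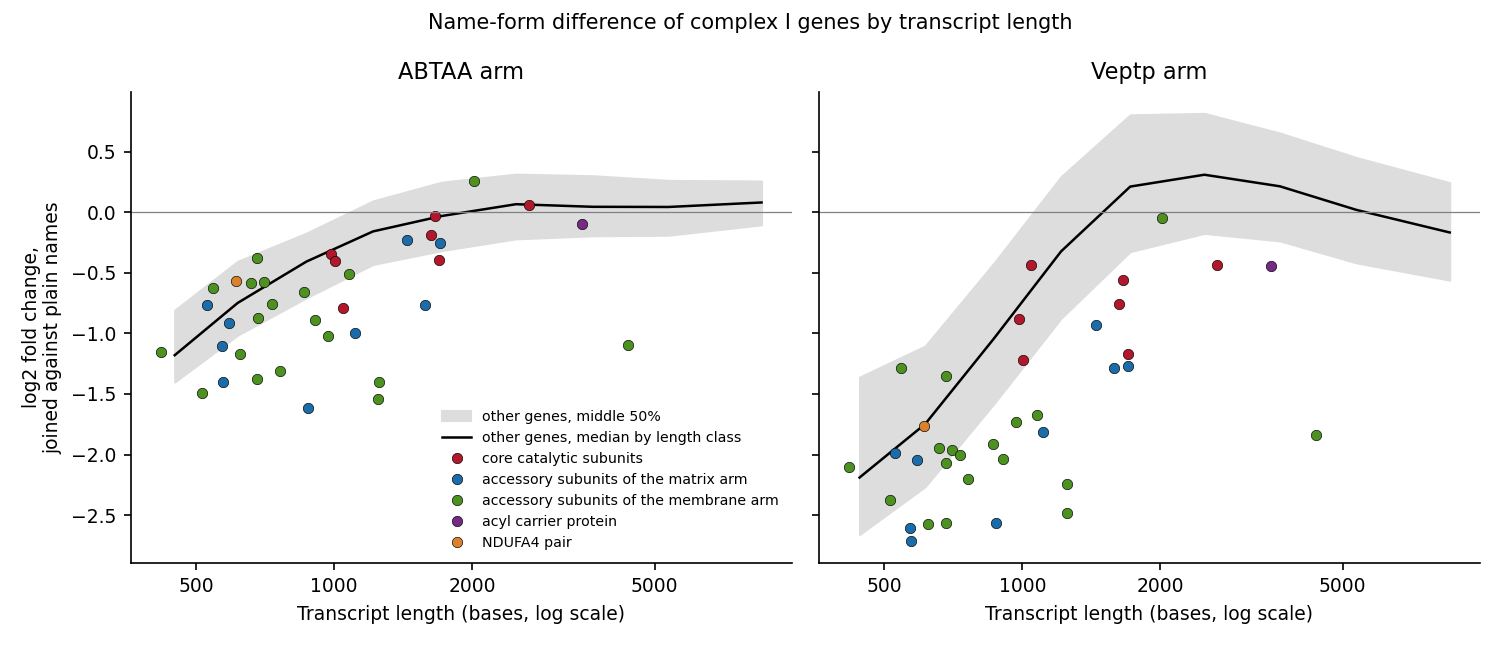
Log2 difference between joined and plain libraries (y axis) against transcript length in bases (x axis, log scale) for the 37 members, with the medians and quartiles of all other genes in bins of length, in the ABTAA and *Veptp* arms. The median of the members under 1000 bases was -2.03 against -1.19 for the longer ones in the *Veptp* arm, and -0.89 against -0.40 in the ABTAA arm, with longer members such as *Ndufb2* also low.

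The response to UUO was therefore also read within the forms. With the form as a covariate, 37 (IgG), 28 (ABT), 35 (VeWT), and 22 (VeKO) of 37 members fell, against 21.4%, 16.8%, 17.3%, and 10.8% of all genes tested, and the medians were -0.86, -0.53, -0.64, and -0.46. Without the libraries that held both *Xist* and Y-linked counts these were 34, 18, 28, and 14 members, against 15.2%, 11.9%, 14.8%, and 10.0% of genes. In the joined libraries alone 31, 30, 19, and 15 fell, against 15.4%, 13.0%, 11.9%, and 10.6% of genes, with medians of -0.86, -0.81, -0.57, and -0.50. In the plain libraries alone 36, 1, 24, and 0 fell, against 12.6%, 4.37%, 6.70%, and 0% of genes, with medians of -0.85, -0.30, -0.66, and -0.29. The plain libraries of VeKO comprise 2 CL and 4 UUO libraries, and in them 4 members were past an unadjusted p of 0.05.

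So the members' medians under ABTAA were -0.81 in 1 form and -0.30 in the other, and close to each other under IgG, at -0.86 and -0.85. The summed level fell to 0.580 of CL in the joined and 0.802 in the plain ABT libraries, and to 0.568 and 0.552 in the IgG libraries. Both *Xist* and Y-linked counts were held by 3 of 4 CL and 2 of 4 UUO plain ABT libraries, and by 0 of the joined ones. In the plain IgG libraries they were held by 1 of 4 CL and 3 of 4 UUO libraries. The plain ABT CL libraries include 1 with a summed level of 24413 CPM, far above the others. The interaction of ABTAA with UUO had a median of 0.03 over the members in the joined libraries, where 0 were past an unadjusted p of 0.05, and of 0.53 in the plain libraries, where 16 were (against 312 of 10076 and 562 of 8898 genes), and 0 members passed the adjusted threshold in either. In VeKO the summed ratio was 0.660 in the joined and 0.795 in the plain libraries, both below the 0.882 of all libraries together, and in VeWT 0.650 and 0.592. With the form as a covariate, the median difference of VeKO from VeWT in CL kidneys was 0.04 rather than -0.22, and that of the interaction 0.21 rather than 0.46.

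**Figure D5:**
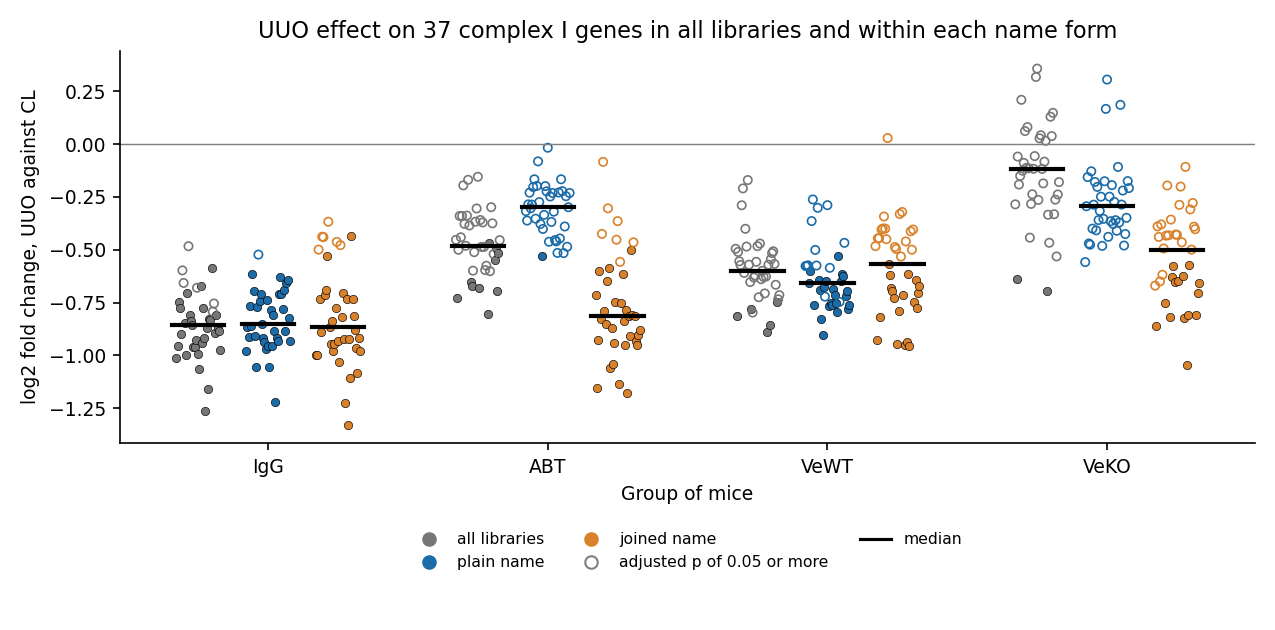
Log2 fold change of UUO against CL kidneys for the 37 members (1 point each, filled where the adjusted p was under 0.05, with the median as a line) in all libraries, the plain, and the joined libraries of IgG, ABT, VeWT, and VeKO mice (x axis). The plain and joined medians are -0.85 and -0.86 in IgG but -0.30 and -0.81 in ABT.

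Without TMM factors, the share of lower genes among all genes called in UUO against CL went from 52.7% to 30.3% (IgG), from 49.7% to 33.3% (ABT), from 45.5% to 28.1% (VeWT), from 43.8% to 28.3% (VeKO), and from 37.9% to 21.1% (PbKO). The median of all genes then moved by 0.21, 0.14, 0.15, 0.11, and 0.08, while 28, 10, 6, 3, and 1 members fell, against 11.3%, 8.31%, 4.56%, 2.03%, and 1.39% of all genes tested, with medians of -0.64, -0.38, -0.40, -0.08, and -0.11. In the comparison of the forms of name this share went from 53.3% to 31.5% in the ABTAA arm and from 45.5% to 19.3% in the *Veptp* arm, with shifts of 0.14 and 0.46, and 28 and 32 members were lower, against 13.8% and 13.9% of all genes tested, and 1 was higher in each, against 29.9% and 57.8%.

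The rest of the respiratory chain was counted in these arms as well. With IgG, all 7 mitochondrially encoded complex I subunits fell (median -0.96), as did 4 of 4 genes of complex II, 8 of 9 of complex III, 9 of 10 of complex IV, 13 of 15 of complex V, and 11 of 18 assembly factors, led by *Ndufaf4* (-1.08 ± 0.19) and *Nubpl*. With ABTAA the counts were 6 of 7, 3 of 4, 3 of 9, 2 of 10, 4 of 15, and 6 of 18. In VeWT they were 1 of 7, 2 of 4, 4 of 9, 1 of 10, 0 of 15, and 8 of 19, and in VeKO 1 of 7, 1 of 4, 3 of 9, 0 of 10, 0 of 15, and 2 of 19. Between the forms of name in the *Veptp* arm, 7 of 7 mitochondrially encoded subunits, 4 of 4, 6 of 9, 9 of 10, and 15 of 15 genes of complexes II to V, and 8 of 19 assembly factors were lower in the joined libraries. In the ABTAA arm these counts were 4 of 7, 2 of 4, 7 of 9, 10 of 10, 11 of 15, and 6 of 18, and of the mitochondrially encoded subunits *mt-Nd1* (0.18 ± 0.15), *mt-Nd4* (-0.06 ± 0.13), and *mt-Nd5* (-0.10 ± 0.12) did not pass. With IgG, 11 of 12 proximal tubule markers and 7 of 8 of the thick ascending limb and distal tubule fell in UUO kidneys, while 7 of 7 fibroblast and 8 of 8 macrophage markers rose, and their part in the complex I levels was not tested. Markers of fat cells summed to at most 711 CPM in any library.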

How the data were processed

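Per the study's methods and the submitters' processing notes, whole-kidney RNA was made into Smart-seq3 libraries, and the authors aligned reads to mm10 with STAR 2.7.3a, collapsed molecular identifiers with UMI-tools 1.1.4 and counted genes with featureCounts of Subread 1.4.6-p5. The annotation used for counting is not given in the sources used here. The deposited table holds raw counts per gene, with the 4 wells of each sample merged. Samples were grouped by the labels, which do not name the mouse of each kidney. CL and UUO libraries were therefore fitted as separate samples, and p-values measure the spread between them.

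Each arm was fitted over its 4 groups with edgeR 4.0.16 (R 4.3.3, TMM, filterByExpr, quasi-likelihood test, Benjamini-Hochberg adjustment over all genes tested, threshold 0.05), and the SE is the log2 fold change divided by the square root of F. The form of library name was tested with group in the model. DESeq2 1.42.0, edgeR's exact test, fits without TMM or filter, with the form as a covariate, within each form, without each library, and without libraries holding both *Xist* and Y-linked counts were alternatives. The scripts were tested on simulated data. Genes named were the core subunits (1 member is not reported here by name, and stays in all counts and medians), *Ndufab1*, *Ndufa4*, and *Ndufa4l2*, the 5 lowest and 5 highest changes in each UUO and form comparison, in the others the called members up to 10 or else the 5 with the largest change, and up to 3 of each other list in each direction. Other genes named are those in counts of 6 or fewer or those without overlap, chosen after their values were seen. Members and lists were chosen with earlier results of these data known. In ABT mice, joined libraries with the numbers 9, 11, and 12 occur in CL and UUO, and their deviations from the group means correlated at r = 0.392, 0.216, and 0.162, so these numbers were taken as pairs in an alternative fit. Complex V was counted by the older gene names of the table. Counting error alone limits single low genes such as *Ndufa4l2*.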

Additional observations from a re-analysis of the deposited data

Results flagged for a closer look

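In 120 groups tested (10 measures in 12 groups), 10 had a library far from the others, and chance flags about 1 in 20. Of these, 4 were the fourth ABT CL library, with a summed complex I level of 24413 CPM against 10984 to 16254 in the others, *Ndufv2* at 928 CPM against 485 to 620, *Ndufs8* at 735 CPM against 346 to 513, and *Ndufa4* at 2095 CPM against 723 to 1241. In the second IgG UUO library, *Ndufv1* was at 495 CPM against 297 to 380 and *Ndufv2* at 506 CPM against 299 to 382. *Ndufa4l2* was at 8.43 CPM in the third IgG UUO library against 0 to 3.92. In the *Pdgfb* arm, *Ndufv2* was at 643 CPM in the first PbKO UUO library against 486 to 499, *Ndufs3* at 111 CPM in the second PbWT UUO library against 94.9 to 96.2, and *Ndufab1* at 172 CPM in the fourth PbWT CL library against 229 to 236.

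The response to UUO differed between PbKO and PbWT for 34 members by the interaction, with the largest differences for *Ndufv2* (1.10), *Ndufb2* (1.06), *Ndufb5* (1.05), *Ndufs4* (0.96), and *Ndufb11* (0.95).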

How the results depend on the processing

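For UUO against CL, the 10 members called with ABTAA became 20 without the filter on low counts, where 1475 of 24646 genes were lower. They became 28 with the form of name as a covariate, 30 in joined and 1 in plain libraries alone. In the joined ABT libraries they were 33 with and 28 without the replicate block. The 5 of VeWT became 35, 19, and 24 with the covariate and in joined and plain libraries. The 19 became 21 with the replicate block, where 1428 of 12556 genes were lower. Same-numbered libraries of the *Veptp* arm correlated at 0.0485 to 0.416, not all above 0.1. By the labels, 4 of the 8 numbers join libraries of different genotypes. These were the numbers 3, 4, 7, and 8, at r = 0.416, 0.273, 0.112, and 0.271, while the numbers 5 and 6 had the lowest values. Whether same-numbered libraries come from 1 mouse is not given by the labels. The 2 of VeKO became 22, 15, and 0 in the same 3 fits, and 0 by the exact test, where 271 of 10713 genes were lower. The 15 became 26 with the replicate block, where 1807 of 12556 genes were lower. The 3 of PbKO became 1 without TMM and 6 by DESeq2, where 248 of 11660 genes were lower. The interaction of *Pdgfb* went from 34 to 14 without TMM. For IgG and the *Pdgfb* arm no paired fit was run. The joined IgG libraries share no number between CL and UUO, and the *Pdgfb* arm has no joined libraries. Numbers in plain names were not used as pairs. The summed ratio went from 0.476 to 0.614 without TMM and 0.588 on totals without *Gm42418*, *AY036118*, and mitochondrial genes (PbWT), from 0.853 to 0.896 and 0.894 (PbKO), and from 1.78 to 1.46 and 1.53 (PbKO against PbWT in UUO). Between forms in the *Veptp* arm, *Ndufs1* (0.029), *Ndufs3* (0.030), *Ndufab1* (0.026), and *Ndufa10* (0.42) turned positive without TMM. Leaving out the libraries with both *Xist* and Y-linked counts gave 20 (IgG) and 5 (ABT) members, and with the form as a covariate also 34 (IgG), 18 (ABT), 28 (VeWT), and 14 (VeKO). This and the ABT fit without the block were added after the data were seen. The cause of these changes was not tested. Leaving out each library gave 28 to 35 (IgG), 8 to 18 (ABT), 5 (VeWT), 1 to 3 (VeKO), 36 to 37 (PbWT), and 1 to 6 (PbKO) members, 37 for PbKO against PbWT in UUO, 30 to 34 for the interaction, 31 to 33 and 36 for the forms, and no sign changed. All genes called went from 2035 to 3159 without TMM (PbKO against PbWT in UUO), and with the form as a covariate from 2194 to 4043 (VeWT) and from 948 to 2562 (VeKO). Over single genes, 1932 alternatives kept the side of the threshold, 80 passed it newly, 59 no longer passed, and 4 reversed. Low counts kept *Ndufa4l2* out of the test.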
